A study of Mus musculus with 8 samples.

Results

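The comparison is between adherent macrophages of 2 mouse lines, one built around the gene for Fra-1 and the other around the gene for Fra-2. It takes in all 8 arrays of the series, 4 per line, with Cre status kept as a term. The Fra-1 line arrays came from 2 Fra-1lox/lox mice, which the labels call wild-type, and 2 Fra-1lox/lox MxCre-/+ mice. The Fra-2 line arrays came from 2 Fra-2lox/lox mice, also called wild-type, and 2 Fra-2lox/lox LysMCre-/+ mice. All mice were on a 129/C57Bl6 background and aged 8 weeks, and could be of either sex. Lavage cells of the peritoneal cavity were left on plastic overnight, and RNA was taken from those that had stuck. The cells of the Fra-1 line, with or without Cre, are labelled thioglycollate elicited, and the cells of the Fra-2 line carry no such label. Mouse line, floxed gene, Cre driver and thioglycollate label therefore go together, and their parts in any difference below cannot be told apart. MxCre is driven by the Mx1 promoter, which interferon switches on in many cell types, and LysMCre sits in the Lyz2 gene and is active in macrophages, monocytes and neutrophils. Whether interferon or an inducer of it was given is not stated in the sources used here.

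The resting peritoneal cavity holds mostly large resident macrophages, which depend on the transcription factor GATA6, take up dying cells through the receptor TIM-4 and live beside B cells and mast cells. Thioglycollate, a sterile irritant broth, draws monocytes into the cavity, where they mature over days into macrophages that take up lipid and secrete proteases, while the large resident macrophages vanish from the lavage. Fra-1 and Fra-2, encoded by Fosl1 and Fosl2, are AP-1 proteins that pair with Jun proteins to bind DNA.

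Each level below is a normalized log2 signal, the log2 of the processed spot signal minus that array's 75th percentile, so that 0 is the 75th percentile of all noncontrol probes of the array. Each difference is the log2 level of the Fra-1 line minus that of the Fra-2 line from limma, and a feature was called at a Benjamini-Hochberg adjusted p under 0.05 over all features tested. Values of single arrays are given in the order control 1, control 2, Cre 1, Cre 2 within a line, and means carry the standard deviation (SD) of the 4 arrays of a line. Between 47.7% and 57.6% of the 59305 noncontrol spots of an array were well above background, and the 75th percentile of signal ran from 315 to 470 units of brightness. The number of arrays limits the precision. As the RNA came from all adherent cells together, fewer cells of a type and less RNA per cell cannot be told apart.

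The 2 lines differed in most of the genes the arrays detected. Of 20968 features tested, 11734 were called (56.0%), 6107 higher in the Fra-1 line (29.1%) and 5627 higher in the Fra-2 line (26.8%). A difference of at least 1 log2 unit was called for 5049 features (24.1%), 2547 higher in the Fra-1 line (12.1%) and 2502 higher in the Fra-2 line (11.9%). At 4 log2 units or more there were 230 and 293. The differences ran from −10.93 (Timd4) to 11.77 (the brightest probe of Bex1), both fitted against a line in which that probe was below background on all arrays, with a median of 0.01 and a median size of 0.45, against a median SD of 0.17 within the Fra-1 line and 0.19 within the Fra-2 line. For 11243 features (53.6%) the arrays of one line lay wholly above those of the other. The first principal component held 82.5% of the variance and placed the Fra-1 line arrays between 92.3 and 98.1 and the Fra-2 line arrays between −103 and −91.9. Arrays of different lines correlated at 0.899 to 0.914 over these features, and arrays of the same line at 0.980 to 0.993. The arrays lay on 2 slides. With slide as a term 11569 features were called, and within slide 1, which holds 3 Fra-1 line and 2 Fra-2 line arrays, 6796 were called. Slide 2 holds 1 Fra-1 line and 2 Fra-2 line arrays and allows no test of line with Cre status kept. A difference within slide 2 is Fra-1 Cre 2 minus Fra-2 Cre 2 where both were measured, 1 array against 1. Fra-2 control 2 adds nothing to it, and the slide 2 list medians below are medians of such differences. On slide 2, 29 of 11716 called features with a value took the opposite sign.

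**Figure D1:**
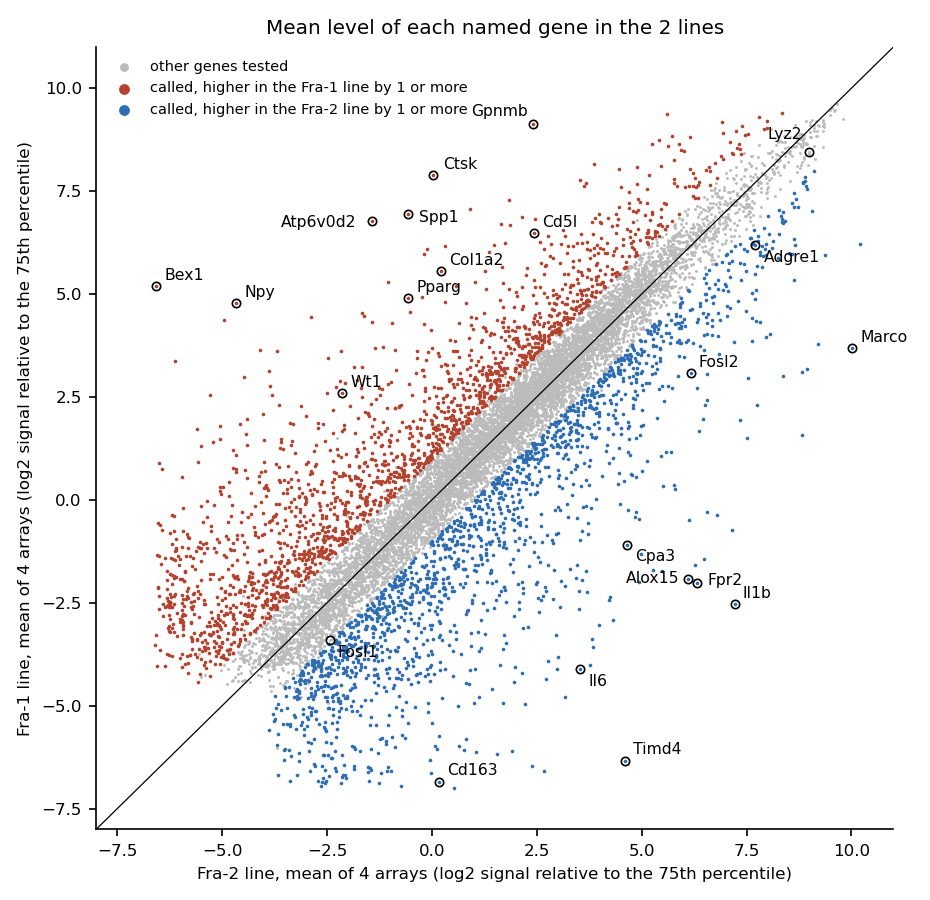
Mean normalized log2 signal of each tested gene with a symbol in the Fra-2 line (x axis) and the Fra-1 line (y axis), 4 arrays each; red and blue points were called by limma with a difference of at least 1 log2 unit, grey points were not called or differed by less, and the line marks equal levels. Timd4, Il1b and Cd163 lie far below the line, Bex1, Npy and Gpnmb far above it, and Lyz2 next to it.

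The targeted genes were read first, in every array. Fosl1 had levels of −2.73, −1.97, −4.78 and −4.18 in the Fra-1 line and −2.99, −2.52, −1.40 and −2.85 in the Fra-2 line, and was well above background on 2 of 4 and on 4 of 4 of these arrays. The Fra-1 control arrays overlapped the Fra-2 line, and the lowest values were those of both MxCre arrays, which were the 2 not above background. Over all arrays the difference of −0.97 (SE 0.62, limma adjusted p = 0.217) was not called; among mice without Cre it was 0.41 and among mice with Cre −2.36 (limma adjusted p = 0.0401), the latter set against arrays with no signal above background. Fosl2 read 2.86, 3.13, 3.19 and 3.15 in the Fra-1 line and 5.51, 5.57, 6.43 and 7.14 in the Fra-2 line, with no overlap. Its difference of −3.08 (SE 0.25, limma adjusted p = 6.55e-05) makes it 8.47-fold higher in the Fra-2 line, and among Fra-2 line arrays the higher values were those labelled LysMCre. Fosl2 signal was thus not lower on the arrays labelled LysMCre than on their controls. The files do not say whether the Fosl1 and Fosl2 probes lie in the deleted parts of these genes, and a probe outside that part does not check the deletion. Lyz2, which encodes lysozyme M and whose locus carries LysMCre, was 8.45 ± 0.22 in the Fra-1 line and 8.98 ± 0.29 in the Fra-2 line, a difference of −0.53 (limma adjusted p = 0.0257). That call was lost without Fra-2 control 2 (−0.40), without Fra-1 control 2 (−0.40) or without Fra-1 Cre 1 (−0.53). It was also lost with all arrays when the filter on dim probes was dropped (limma adjusted p = 0.0605). The same held within slide 1 (−0.46), among mice without Cre (−0.70) and among mice with Cre (−0.36). Among the 22 AP-1 factors tested, 9 were higher in the Fra-1 line and 6 in the Fra-2 line, with a median of 0.04. Their share called was 68.2%, against 56.0% of all features. Atf3, a stress-induced repressor, and Jun, the partner of the Fos proteins, were higher in the Fra-1 line by 2.96 and 2.39, and Batf3, a dendritic cell factor, by 1.91. Junb, another Jun protein, was lower in the Fra-1 line, with a difference of −1.69. Xist, transcribed from the silenced X chromosome of female cells, was 1.01 to 1.65 in the Fra-1 line and 0.19 to 0.60 in the Fra-2 line (difference 0.96, limma adjusted p = 0.00101), and the 4 listed Y-linked genes were below the filter in both lines.

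Both lines carried the defining genes of macrophages. All 20 general macrophage markers were above background in each line, and their summed signal was 11.53 to 12.17 on the log2 scale in the Fra-1 line and 11.90 to 12.15 in the Fra-2 line. A gene missing on an array was left out of that array's sum, as Csf1r was on Fra-1 Cre 2 and Fra-2 control 1. These ranges thus partly reflect which genes were measured. Of the 20, 12 were higher in the Fra-2 line and 3 in the Fra-1 line, with a median of −0.66. Their share called was 75%, against 56.0% of all features. Adgre1, which encodes the F4/80 antigen, was 6.50, 5.89, 6.09 and 6.26 in the Fra-1 line and 7.87, 7.74, 7.74 and 7.49 in the Fra-2 line (−1.53). Csf1r, the receptor for the growth factor of macrophages, was lower in the Fra-1 line, with a difference of −0.95 from 3 arrays of each line. Its other probes gave differences of up to −2.68, and without Fra-1 Cre 1 the brightest was not called (−0.86). Cd14, the co-receptor for bacterial lipopolysaccharide, stood at 3.82, 3.93, 4.03 and 4.05 against 7.76, 7.88, 7.97 and 8.26, 16.1-fold higher in the Fra-2 line (limma adjusted p = 1.59e-06). Aif1, an actin-bundling protein of macrophages, followed with −3.35, and the 3 genes of the first complement component with −2.83 (C1qa), −1.79 (C1qc) and −1.57 (C1qb). Fcgr1, a high-affinity receptor for immunoglobulin G, differed by −1.06, Mertk, a receptor for dying cells, by −0.73, and Spi1, the master factor PU.1, by −0.59. Higher in the Fra-1 line were Cd63, a tetraspanin of late endosomes (2.25), Cd68, a lysosomal glycoprotein (1.98), and Lgals3, a secreted lectin (0.89, from 3 Fra-1 line arrays). The 5 that were not called were Tyrobp (0.11), Ctss (0.09), Itgam (−0.16 on its brightest probe and up to −1.98 on the others), Fcer1g (−0.30) and Laptm5 (0.43). Fcer1g (limma adjusted p = 0.0565) was called in 6 alternatives with all arrays, at adjusted p of 0.0256 to 0.0491, and without Fra-1 control 1 (−0.35), Laptm5 without Fra-2 Cre 1 (0.64) and Itgam as the mean of its probes (−1.37).

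The genes of large resident peritoneal macrophages separated the lines, but not all in the same direction. Of 30 listed genes, 29 passed the filter and all 29 were called, 23 higher in the Fra-2 line and 6 in the Fra-1 line, against 56.0% called over all features. Their median was −3.43, with −3.93 within slide 1 and −2.95 within slide 2. Timd4, which encodes TIM-4, was −6.69, −6.78, −5.52 and −6.35 in the Fra-1 line, below background on all 4 arrays, and 4.55, 4.89, 4.49 and 4.44 in the Fra-2 line. It was at least 633-fold higher in the Fra-2 line (fitted difference −10.93, SE 0.27, limma adjusted p = 1.59e-06). Each such bound divides the mean of the brighter line by that of the dimmer line, with values below an array's floor raised to it. The floor was the lowest level of any probe well above background on that array. Some probes below background read above the floor, so these bounds are approximate. Alox15, a lipoxygenase, was −3.16, −1.66, −1.49 and −1.38 against 6.0, 5.28, 6.81 and 6.35, a 261-fold difference. Apoc1, a lipoprotein component, stood at −1.43 ± 0.28 and 6.49 ± 0.40 (−7.92). Selp, the adhesion molecule P-selectin, had −4.34, −4.04, −3.66 and −3.97 against 3.97, 2.48, 4.37 and 4.24 (−7.77). Ltbp1 and Tgfb2, which belong to transforming growth factor beta signalling, were lower in the Fra-1 line, with differences of −7.41 (2 of 4 Fra-1 line arrays above background) and −2.85. So were Serpinb2, an inhibitor of plasminogen activators (−7.15), Prg4, the lubricant lubricin (−6.86), Cxcl13, the chemokine that draws B cells (−5.41, from 3 Fra-2 line arrays), coagulation factor gene F5 (−5.40) and Aspa, an aspartoacylase, below background on all 4 Fra-1 line arrays and at least 28.2-fold higher in the Fra-2 line.

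Marco, a scavenger receptor for bacteria, was 2.72, 3.95, 3.36 and 4.72 in the Fra-1 line and 10.06, 10.13, 9.86 and 10.02 in the Fra-2 line, 80.6-fold apart. C4b, a complement component, had 3.10 ± 0.32 and 8.83 ± 0.16, and Thbs1, the matrix protein thrombospondin 1, 3.0 ± 0.45 and 8.38 ± 0.17. Gata6, the factor that specifies these cells, differed less: its levels were 1.13, 1.49, 0.25 and −0.54 in the Fra-1 line and 2.04, 1.52, 3.03 and 2.41 in the Fra-2 line (−1.67, SE 0.50, limma adjusted p = 0.0247). The gap between the highest Fra-1 line array and the lowest Fra-2 line array was narrow, and within the Fra-1 line both MxCre arrays lay below both controls. Gata6 was not called without Fra-2 Cre 1 (−1.31), Fra-2 Cre 2 (−1.55), Fra-1 Cre 1 (−1.59) or Fra-1 Cre 2 (−1.27), and among mice without Cre its difference was −0.47. Nor was it called without the filter on dim probes (limma adjusted p = 0.0507) or within slide 1 (−1.61). GATA6 and the retinoid-dependent genes of this programme are also expressed in mesothelium, whose markers are given below. Smaller negative differences were measured for Garnl3 (−3.93), Slpi, a secreted protease inhibitor (−3.43), Vsig4, a complement receptor (−3.34), F10 (−2.21), Cav1, the main protein of caveolae (−2.18), Naip1, an inflammasome sensor (−1.97), Icam2, an adhesion molecule (−1.78), and Fn1, fibronectin (−1.08, from 2 Fra-2 line arrays).

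The 6 members that were higher in the Fra-1 line were Wt1, Cd5l, Bhlhe41, Cd93, Bhlhe40 and Rarb. Wt1, a zinc finger factor of mesothelium that is also on that list, was 2.95, 3.52, 2.33 and 1.58 in the Fra-1 line and −2.17, −2.22, −2.32 and −1.89 in the Fra-2 line (4.75). Cd5l, a secreted protein that protects macrophages from cell death, was 6.43, 6.44, 6.38 and 6.70 against 4.0, 1.23, 3.67 and 0.82 (4.06, SE 0.75, limma adjusted p = 0.00308). On slide 2 the difference of Cd5l was 5.88, from Fra-1 Cre 2 against Fra-2 Cre 2 alone, and on slide 1 2.55. Its Fra-2 line arrays spread over more than 3 log2 units with the lower pair on slide 2. Bhlhe40 and Bhlhe41, paired repressors that let macrophages keep dividing, differed by 1.71 and 2.99, Cd93, a C-type lectin-like receptor, by 2.52, and Rarb, a retinoic acid receptor, by 0.86. Lyve1 did not pass the filter. Of 21 tested genes of small peritoneal macrophages and monocytes, 12 were higher in the Fra-2 line and 5 in the Fra-1 line (median −0.75). Their share called was 81.0%, against 56.0% of all features. Folr2, a folate receptor (3.29), and Itgax, the CD11c integrin (2.94), were higher in the Fra-1 line, and Hp, haptoglobin (−5.43), Vcan, the proteoglycan versican (−4.98, −2.41 on its other probe), and Plac8 (−4.04) were higher in the Fra-2 line.

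**Figure D2:**
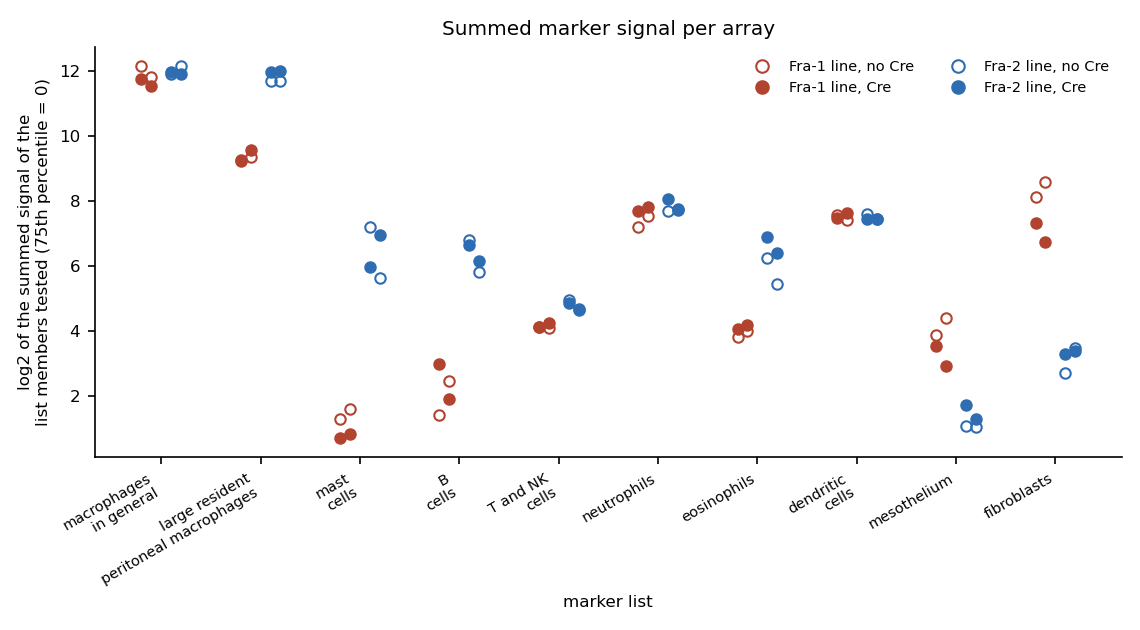
Log2 of the summed signal of the tested members of 10 marker lists (x axis) on each array (points; y axis, relative to the 75th percentile); red is the Fra-1 line, blue the Fra-2 line, and filled points are mice with Cre. Summed general macrophage signal overlaps between the lines, large resident macrophage, mast cell and B cell signal is higher on every Fra-2 line array, and mesothelial and fibroblast signal is higher on every Fra-1 line array. A gene missing on an array is left out of that array's sum, so sums of a list can cover different genes.

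Genes of lipid uptake and lysosomal breakdown were higher in the Fra-1 line. Of the 18 genes of lipid-associated macrophages tested, 17 were higher in the Fra-1 line and 1 in the Fra-2 line, with a median of 3.04 (2.88 within slide 1 and 3.50 within slide 2). Over all features the median was 0.01 and the share called 56.0%, against 100% in this list. Atp6v0d2, a subunit of the vacuolar proton pump of osteoclasts and lipid-laden macrophages, was 6.99, 6.60, 6.81 and 6.72 in the Fra-1 line and −0.65, −0.54, −2.0 and −2.52 in the Fra-2 line, 295-fold apart. Spp1, the secreted matrix protein osteopontin, read 6.60, 6.73, 7.28 and 7.15 against −0.02, −0.55, −1.35 and −0.34 (182-fold). Gpnmb, a lysosomal membrane glycoprotein, was 9.48, 8.92, 9.02 and 9.10 against 2.99, 2.54, 3.01 and 1.14 (105-fold), with the lowest value on Fra-2 Cre 2. The groups of arrays did not overlap for any of these genes. Syngr1, a vesicle membrane protein, differed by 6.21 and Fabp4, a fatty acid binding protein, by 4.03. Pparg, the nuclear receptor that switches on lipid uptake genes such as Fabp4, was 5.24, 4.77, 4.73 and 4.83 in the Fra-1 line and −0.11, −0.60, −0.69 and −0.92 in the Fra-2 line (5.47, SE 0.16, limma adjusted p = 2.15e-06). Nr1h3, which encodes the sterol sensor LXR alpha, was higher by 2.55, Lpl, lipoprotein lipase, by 2.97 and Abcg1, a cholesterol exporter, by 2.70. The list of LXR targets as a whole had 3 genes higher in the Fra-1 line and 9 in the Fra-2 line (median −0.36, share called 70.6%). The lowest values were those of Apoc1 and Abca9, a lipid transporter (−2.64).

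Of 25 lysosomal enzymes and membrane proteins, 17 were higher in the Fra-1 line and 3 in the Fra-2 line, with a median of 1.04. Their share called was 80%, against 56.0% of all features. Ctsk, the bone-degrading protease cathepsin K, was 8.31, 7.89, 7.81 and 7.57 in the Fra-1 line and 0.04, 0.89, −0.32 and −0.54 in the Fra-2 line (235-fold, limma adjusted p = 2.03e-06). Lipa, the acid lipase that splits stored cholesterol esters (2.69), and Npc1, which moves cholesterol out of lysosomes (1.91), had arrays that did not overlap. Ctse (−4.09) and Ctsc (−2.10), genes of cathepsins E and C, went the other way. Ctsk and Atp6v0d2 are also osteoclast genes. Of 13 osteoclast and fusion genes tested, 6 were higher in the Fra-1 line and 4 in the Fra-2 line (median −0.05, share called 76.9%). Acp5, the phosphatase that marks osteoclasts, was higher by 2.48. Itgb3, the integrin beta 3 chain, was higher by 3.86 on its brightest probe but had −0.94 on another. Of 14 matrix metalloproteinases and their inhibitors, 6 were higher in the Fra-1 line and 2 in the Fra-2 line, a share called of 57.1% that lies near the 56.0% of all features. Mmp12, the macrophage elastase, differed by 3.69 and Mmp14, a membrane-bound collagenase, by −2.66.

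Inflammatory genes were higher in the Fra-2 line. Of 18 cytokines and mediators tested, 14 were higher in the Fra-2 line and 2 in the Fra-1 line, with a median of −2.50 (−2.08 within slide 1 and −3.30 within slide 2). The share called was 88.9%, against 56.0% of all features. Il1b, the cytokine interleukin 1 beta, was −2.61, −2.77, −2.55 and −2.20 in the Fra-1 line and 6.62, 7.63, 6.42 and 8.18 in the Fra-2 line. This is an 859-fold difference (−9.75, SE 0.39, limma adjusted p = 4.21e-06), and all 8 arrays were above background. Il6, an inducer of the acute phase response, was −3.64, −2.61, −4.55 and −5.69 in the Fra-1 line, where 2 of 4 arrays were above background, and 2.33, 3.01, 3.40 and 5.37 in the Fra-2 line. Its arrays spread widely within each line, and its difference was −7.65 (SE 0.84, limma adjusted p = 2.60e-04). It was −6.52 within slide 1 and −11.06 within slide 2, the latter from Fra-1 Cre 2 against Fra-2 Cre 2 alone. Csf2, the growth factor GM-CSF, was below background on all Fra-1 line arrays and at least 9.12-fold higher in the Fra-2 line. Saa3, an acute phase protein made by macrophages, was 6.21 ± 0.39 against 10.21 ± 0.07 (15.9-fold). Ptgs2, the inducible cyclooxygenase, differed by −3.73, Tnfsf14, the cytokine LIGHT, by −7.25, and Gpr84, a receptor for medium-chain fatty acids, by −7.21.

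The stretches before the start sites of the most different genes were searched for 3 short motifs on both strands, the AP-1 letters TGANTCA, the NF-kappaB letters GGG and TTTCC with any 2 bases between, and the E-box letters TCACGTGA known from lysosomal genes, where N is any base. A RefSeq table of assembly GRCm38.p6 gave promoters for 33 of the 40 genes with the largest differences, 17 higher in the Fra-1 line and 16 in the Fra-2 line. The AP-1 letters stood in the 250 bases before the start of 1 of the 17 and 4 of the 16, and the NF-kappaB letters in 0 of the 17 and 1 of the 16. Over all 32851 promoters in the table the AP-1 letters occurred in 6.75% and the NF-kappaB letters in 1.41%. Over the promoters of tested genes the shares were 4.94% and 1.52%. Among called genes at least 2 log2 units apart, the AP-1 share was 8.04% for those higher in the Fra-1 line and 8.04% for those higher in the Fra-2 line, and the NF-kappaB share 1.28% and 3.11%. The E-box letters occurred in 0.785% of all promoters and 1.39% of those of tested genes, in 1.17% for genes at least 2 log2 units higher in the Fra-1 line and in 0.389% for those higher in the Fra-2 line. Genes can have several promoters in the table, and a match says nothing of binding in these cells. The 5 upstream stretches with a match are shown because they belong to genes of the largest differences, with the matched letters in capitals: AP-1 in each and NF-kappaB in the second match of Il6. They lie at chr5:30012864-30013113 (plus strand), chr1:164115014-164115263 (plus), chr1:107528753-107529002 (plus), chr17:57194182-57194431 (minus) and chr1:86111981-86112230 (minus). The first 4 genes were higher in the Fra-2 line and Htr2b in the Fra-1 line.
Il6: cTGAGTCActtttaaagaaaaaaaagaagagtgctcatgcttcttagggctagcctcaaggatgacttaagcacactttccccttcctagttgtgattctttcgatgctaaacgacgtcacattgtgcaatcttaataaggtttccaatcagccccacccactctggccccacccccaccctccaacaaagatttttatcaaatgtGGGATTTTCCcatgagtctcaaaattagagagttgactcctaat
Selp: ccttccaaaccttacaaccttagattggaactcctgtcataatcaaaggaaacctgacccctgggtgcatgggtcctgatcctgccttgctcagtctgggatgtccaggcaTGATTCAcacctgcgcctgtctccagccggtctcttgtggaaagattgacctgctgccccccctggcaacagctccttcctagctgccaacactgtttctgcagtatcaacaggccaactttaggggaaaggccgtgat
Serpinb10: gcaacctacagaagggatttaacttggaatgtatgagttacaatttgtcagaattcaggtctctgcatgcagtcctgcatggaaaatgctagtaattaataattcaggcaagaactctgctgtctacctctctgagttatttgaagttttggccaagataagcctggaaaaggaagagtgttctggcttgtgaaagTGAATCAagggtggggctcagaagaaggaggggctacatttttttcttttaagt
Tnfsf14: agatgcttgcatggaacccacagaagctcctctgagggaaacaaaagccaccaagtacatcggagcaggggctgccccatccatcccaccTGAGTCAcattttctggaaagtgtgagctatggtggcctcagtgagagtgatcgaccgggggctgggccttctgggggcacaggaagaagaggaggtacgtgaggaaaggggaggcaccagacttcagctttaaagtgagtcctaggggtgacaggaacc
Htr2b: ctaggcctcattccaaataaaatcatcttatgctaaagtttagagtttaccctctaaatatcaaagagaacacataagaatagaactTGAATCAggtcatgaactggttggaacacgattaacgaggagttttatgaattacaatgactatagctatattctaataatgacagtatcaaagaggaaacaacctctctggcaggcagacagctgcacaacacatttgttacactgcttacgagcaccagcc

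Several receptors for bacterial products and chemoattractants were also higher in the Fra-2 line. Fpr2, a formyl peptide receptor that guides cells to bacteria, was −1.75, −1.98, −2.44 and −1.94 in the Fra-1 line and 5.58, 6.70, 5.93 and 7.05 in the Fra-2 line (325-fold, limma adjusted p = 4.43e-06). Its relative Fpr1 differed by −7.86. Over the 17 chemoattractant receptors tested, 7 were higher in the Fra-2 line, 5 in the Fra-1 line and 5 were not called (median −0.23, share called 70.6%). Cmklr1, the chemerin receptor (−3.03), and Ccr1 (−1.77) were lower in the Fra-1 line and Ptafr, the receptor for platelet-activating factor, was higher (1.83). Of 22 chemokines, 11 were higher in the Fra-2 line and 5 in the Fra-1 line (median −1.10), a share called of 72.7% against 56.0% of all features. Cxcl3, which recruits neutrophils, had −3.36, −4.13, −4.46 and −3.69 against 2.48, 3.53, 1.87 and 3.20, and Ccl24, which recruits eosinophils, −1.42, −0.26, −0.50 and 0.19 against 6.92, 6.01, 6.27 and 5.35. Ppbp, a chemokine precursor stored by platelets, was below background on all Fra-1 line arrays and at least 41.2-fold higher in the Fra-2 line. Ccl8, a chemoattractant of monocytes, was the opposite, with 1.86, 3.17, 0.75 and 0.01 in the Fra-1 line and −3.57, −3.54, −4.45 and −4.46 in the Fra-2 line, where 2 of 4 arrays were above background.

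Of 19 Fc receptors and C-type lectins, 12 were higher in the Fra-2 line and 3 in the Fra-1 line (median −1.22, share called 78.9%). Clec4n and Clec4e, which encode the fungal sensor Dectin-2 and the mycobacterial sensor Mincle, differed by −5.76 and −5.44. Clec4b1 differed by −4.40 on its brightest probe and by 0.30 on its other. Of 21 Toll-like receptors and partner proteins, 11 were higher in the Fra-2 line and 3 in the Fra-1 line (median −0.50). The share called was 66.7%, against 56.0% of all features. Tlr2, which senses bacterial lipoproteins, was 1.96 ± 0.19 in the Fra-1 line and 6.46 ± 0.45 in the Fra-2 line. Lbp, which hands lipopolysaccharide to CD14, differed by −3.93. Tlr5, the flagellin receptor, was below background in the Fra-1 line and at least 5.27-fold higher in the Fra-2 line. Cd180, a relative of Tlr4, was higher in the Fra-1 line by 1.83. The 24 scavenger and uptake receptors had 10 genes higher in the Fra-1 line and 11 in the Fra-2 line (share called 87.5%). Cd163, the haptoglobin-haemoglobin receptor, was below background on all Fra-1 line arrays and at least 29.6-fold higher in the Fra-2 line, and Olr1, a receptor for oxidized lipoprotein, differed by −4.16. Stab2, a receptor for hyaluronan, was below background on all Fra-2 line arrays and at least 15.3-fold higher in the Fra-1 line.

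Complement and eicosanoid genes were mostly higher in the Fra-2 line. Of 21 complement genes, 11 were higher there and 6 in the Fra-1 line (median −1.33). The share called was 81.0%, against 56.0% of all features. Cfb, the protease of the alternative pathway, was 1.37, 1.70, 1.57 and 1.65 in the Fra-1 line and 8.35, 9.13, 8.54 and 9.26 in the Fra-2 line (152-fold, limma adjusted p = 2.15e-06). C3, the central component, differed by −3.30, and Cd59a, which protects cells from lysis by complement, by 3.53. Of 17 eicosanoid enzymes, 10 were higher in the Fra-2 line and 3 in the Fra-1 line (median −0.89, share called 76.5%). Alox5, which starts leukotriene synthesis, was −0.56, 0.42, 0.63 and 0.93 against 5.54, 5.60, 5.78 and 6.15, 42.5-fold higher in the Fra-2 line. Hpgds, a prostaglandin D synthase, was 1.98, 1.86, 1.81 and 1.69 against −2.59, −3.08, −2.24 and −2.50, 21.6-fold higher in the Fra-1 line. Coagulation genes split, 7 higher in the Fra-1 line and 5 in the Fra-2 line (share called 75%). Plau, the plasminogen activator urokinase (3.06), and F7 (2.77) were higher in the Fra-1 line and F13a1, a clot-stabilizing transglutaminase (−2.86), in the Fra-2 line.

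The interferon-induced GTPases, which attack vacuoles holding pathogens, were lower in the Fra-1 line in 14 of 15 cases and higher in 0, with a median of −1.79. Their share called was 93.3%, against 56.0% of all features. Gbp5 was −2.24, −1.81, −1.37 and −2.18 in the Fra-1 line and 2.83, 4.0, 3.36 and 3.52 in the Fra-2 line (40.1-fold), and Gbp2 was 1.99 ± 0.54 and 5.36 ± 0.41. Type I interferon-stimulated genes were called in both directions. Of 27 tested, 15 were higher in the Fra-2 line and 3 in the Fra-1 line, with a median of −0.59. The share called was 66.7%, against 56.0% of all features. Zbp1, a sensor of foreign nucleic acid (−2.15), and Ifitm3, which blocks virus entry (−1.70), were lower in the Fra-1 line, while Rsad2, the antiviral enzyme viperin (2.99), and Oasl1 (2.32) were higher. Of 16 genes of MHC class II presentation, 11 were higher in the Fra-2 line and 0 in the Fra-1 line (median −0.87, share called 68.75%). The largest differences were those of the costimulatory genes Cd86 (−4.18) and Cd40 (−3.21) and of H2-DMb2 (−3.87), H2-Ob (−3.42) and H2-Oa (−3.07), which load or edit peptides. H2-Ob and H2-Oa are known from B cells, whose markers moved the same way; the part of B cells in these values was not tested.

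Genes of alternative activation did not share a direction. Of 16 tested, 5 were higher in the Fra-1 line and 9 in the Fra-2 line (median −0.78, share called 87.5% against 56.0% of all features). Chil3, a chitinase-like protein also called Ym1, was 6.0, 6.98, 5.61 and 6.21 in the Fra-1 line and −0.30, 0.16, 3.56 and 2.51 in the Fra-2 line, where the LysMCre arrays lay above the controls. Its difference was 4.72 (SE 0.75, limma adjusted p = 0.00155). Il4ra, the receptor chain for interleukin 4 (−2.65), Cish, a feedback inhibitor of cytokine signalling (−3.87), and Ccl17, a T cell chemokine (−3.68), were lower in the Fra-1 line.

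Cell cycle genes were higher in the Fra-1 line. Of 29 tested, 24 were higher in the Fra-1 line and 2 in the Fra-2 line, a share called of 89.7% against 56.0% of all features. Their median was 1.78, which is 1.67 with the 2 genes below background in 1 line at their bound, 1.91 within slide 1 and 1.81 within slide 2. Ccnb1, the cyclin of mitosis, was 1.24, 1.58, 1.13 and 1.08 in the Fra-1 line and −1.69, −1.48, −1.31 and −1.96 in the Fra-2 line. Birc5, a protein of the dividing chromosome (2.83), and Ccna2, the cyclin of DNA replication (2.83), had similar differences. The D cyclins split, Ccnd1 being higher by 2.78 while Ccnd2 differed by −2.48. Metabolic lists held calls in both directions. Of 25 respiratory chain subunits, 4 were higher in the Fra-1 line and 1 in the Fra-2 line, all by 0.50 or less (median 0.11). Their share called was 20%, below the 56.0% of all features. Of 23 cholesterol synthesis genes, 4 were higher in the Fra-1 line and 6 in the Fra-2 line (median −0.15), a share called of 43.5%. The factor gene Srebf2 was higher by 2.54 on its brightest probe and had −0.70 on its other. Of 25 genes of the hypoxia response and glycolysis, 4 were higher in the Fra-1 line, among them Ndrg1 (3.53) and the carbonic anhydrase Car9 (2.54), and 9 in the Fra-2 line, among them Pfkfb3, which drives glycolysis (−2.01). The share called in that list was 52.0%. Antioxidant genes (8 and 7 of 20, 75% called), iron genes (6 and 3 of 16), integrins (7 and 6 of 16, 81.25% called) and retinoid and nuclear receptors (8 and 7 of 18, 83.3% called) went both ways. The share called among iron genes was 56.25%, near the 56.0% of all features. Sod2, the mitochondrial superoxide dismutase (−2.47), Slc7a11, the cystine importer (−3.48), and Trf, transferrin (−2.06), were lower in the Fra-1 line. Steap3, an iron reductase (3.09, 1.39 on its other probe), was higher.

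**Figure D3:**
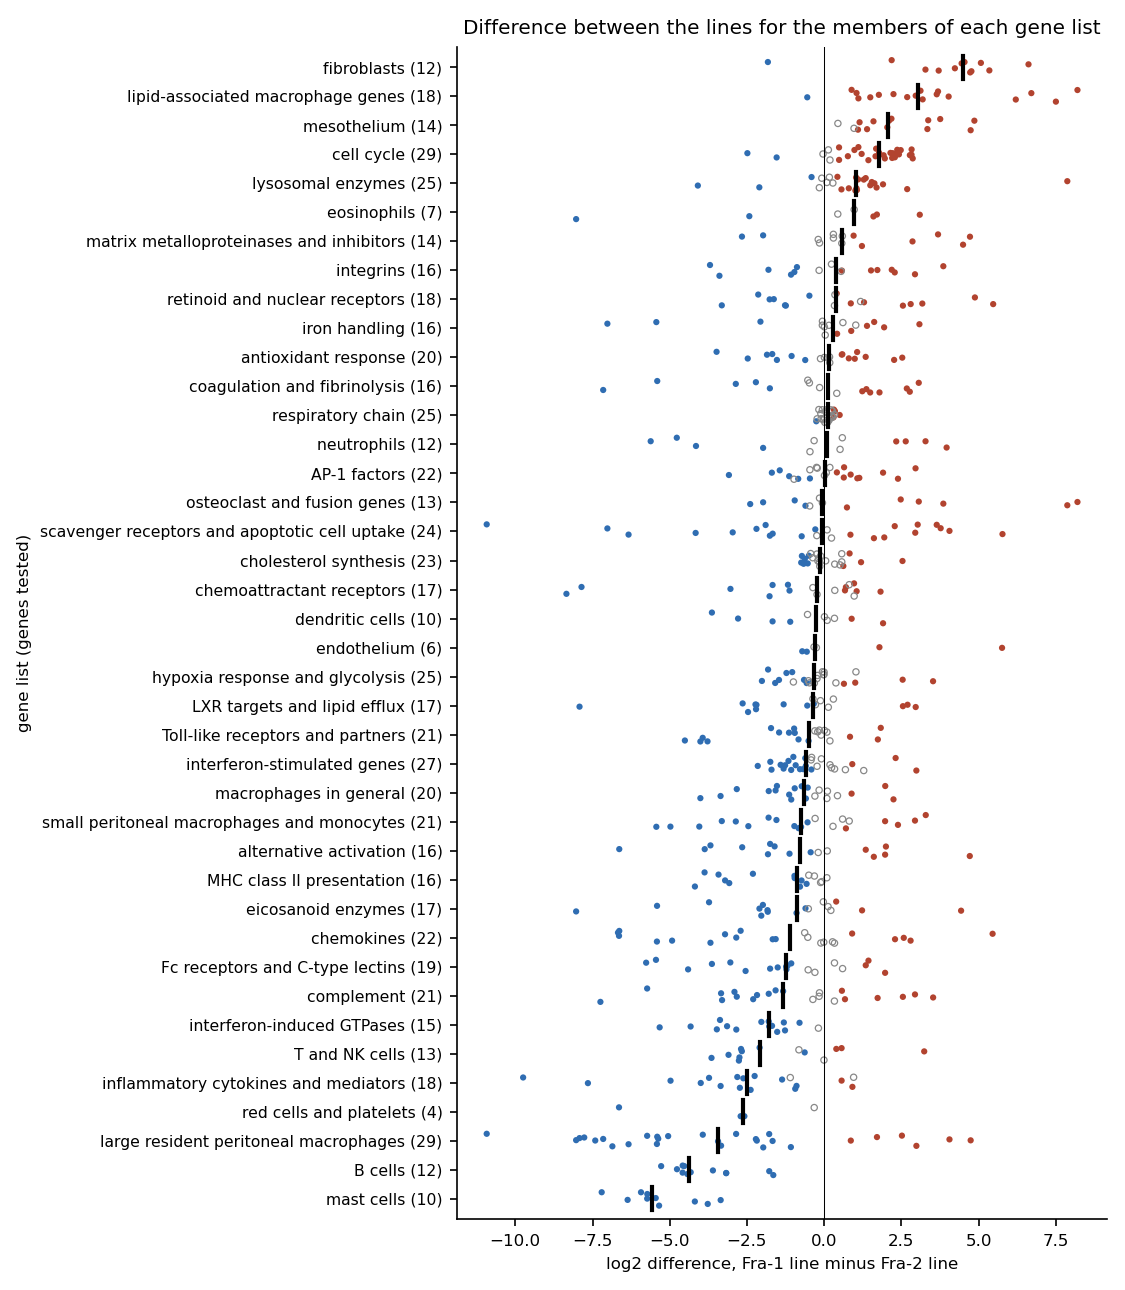
Log2 difference, Fra-1 line minus Fra-2 line (x axis), of every tested member of 40 gene lists with at least 4 tested members (y axis, number tested in brackets); filled points were called by limma, open points were not, and black bars are list medians. Fibroblast, lipid-associated, mesothelial, cell cycle and lysosomal lists have the highest medians, and mast cell, B cell and large resident macrophage lists the lowest.

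Markers of other cells of the cavity also differed between the lines. All 10 mast cell genes tested were higher in the Fra-2 line, with a median of −5.59 (−4.96 with the genes below background in 1 line set at their bound) and a summed signal of 0.69 to 1.60 in the Fra-1 line and 5.63 to 7.19 in the Fra-2 line. Mcpt4, a mast cell protease, was −3.82, −2.38, −3.77 and −3.60 in the Fra-1 line and 5.03, 2.79, 3.13 and 4.29 in the Fra-2 line, and Cpa3, the mast cell carboxypeptidase, −0.86, −0.32, −1.56 and −1.61 and 5.58, 4.01, 3.89 and 5.10. Both were highest on Fra-2 control 1 and Fra-2 Cre 2, and 2 of the 10 genes were below background on all Fra-1 line arrays. All 12 B cell genes tested were higher in the Fra-2 line, with a median of −4.37 (−3.61 with such genes at their bound) and a summed signal of 1.41 to 2.99 against 5.81 to 6.79. Cd79b, a chain of the B cell receptor, was −0.24, 0.77, 1.36 and 0.28 in the Fra-1 line and 5.38, 4.23, 5.20 and 4.64 in the Fra-2 line. Cd79a, its partner, was below background on all Fra-1 line arrays and at least 12.2-fold higher in the Fra-2 line, and Blk, a B cell kinase, was also below background there. Of 13 T and NK cell genes, 8 were higher in the Fra-2 line and 3 in the Fra-1 line (median −2.09). The share called was 84.6% here and 100% among mast cell and B cell genes, against 56.0% of all features. Cd3d (−3.10) and Cd3g (−2.76) of the T cell receptor were lower in the Fra-1 line, and Cd8a, Ncr1, Klrb1c and Gzmb did not pass the filter in either line. The mast cell and B cell lists moved together with the large resident macrophage, chemokine, cytokine and MHC class II lists, and their part in those results was not tested.

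Markers of the peritoneal wall went the other way. Of 12 fibroblast genes tested, 11 were higher in the Fra-1 line, with a median of 4.50 (5.34 among mice without Cre and 3.65 among mice with Cre) and a summed signal of 6.72 to 8.59 against 2.70 to 3.48. Col1a2, a chain of type I collagen, was 5.97, 6.46, 5.19 and 4.60 in the Fra-1 line and −0.87, 0.72, 0.35 and 0.61 in the Fra-2 line. Pdgfra, a growth factor receptor of fibroblasts, was 1.86, 2.33, 1.04 and 0.39 in the Fra-1 line and below background in the Fra-2 line, at least 52.7-fold apart. Sparc, a collagen-binding glycoprotein, was higher by 4.73 on its brightest probe, with −1.38 on another. The twelfth gene was Thy1, a surface protein of fibroblasts that T cells also carry, named after its value was seen, at −1.82. Of 14 mesothelial genes, 12 were higher in the Fra-1 line and 0 in the Fra-2 line (median 2.08, or 1.88 with such genes at their bound, summed signal 2.91 to 4.41 against 1.04 to 1.71). The share called was 85.7% here and 100% among fibroblast genes, against 56.0% of all features. Lrrn4, a membrane protein of mesothelium, was −0.58, 0.18, −1.91 and −2.69 in the Fra-1 line and below background in the Fra-2 line, at least 8.36-fold apart, and Upk3b, an uroplakin, at least 5.26-fold. Within the Fra-1 line, fibroblast and mesothelial summed signal was higher on both control arrays than on both MxCre arrays. Of the markers tested, 6 of the 12 fibroblast genes fibroblast genes and 8 of the 14 mesothelial genes were above background on all 8 arrays. These lists moved together with Wt1 and the lists of lipid-associated and cell cycle genes, and their part in those results was not tested.

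Granulocyte markers split. Of 12 neutrophil genes, 4 were higher in each line (median 0.10, share called 66.7%), Ngp and Cxcr2 did not pass the filter, and Ly6g was not named on the array. Mpo, myeloperoxidase, was −4.03, −3.64, −3.44 and −3.31 in the Fra-1 line and 0.49, −1.08, 4.39 and 0.86 in the Fra-2 line, with the highest value on Fra-2 Cre 1. Ltf, lactoferrin, was higher in the Fra-1 line by 3.28. Of 7 eosinophil genes tested, Siglecf (3.10), Ear2 (1.71) and Ear1 (1.60) were higher in the Fra-1 line, Il5ra, a receptor chain for interleukin 5 (−2.42), and Alox15 in the Fra-2 line, and the granule genes Prg2, Prg3 and Epx were below the filter in both lines. Ear1 and Ear2 are close copies of each other and their probes may share signal. Both lost their call without Fra-2 control 2 (1.40 and 1.51), without Fra-1 Cre 1 (1.54 and 1.63) or without Fra-1 Cre 2 (1.39 and 1.52), and Ear1 also without Fra-1 control 2 (1.69). Both were also not called without the filter on dim probes, within slide 1 or among mice without Cre. Among platelet and red cell genes, Pf4 (−2.70, from 3 Fra-2 line arrays) was lower in the Fra-1 line. Of 6 endothelial genes, 2 were higher in each line (share called 66.7%). Vwf, von Willebrand factor, had 4.48, 4.15, 4.21 and 4.48 in the Fra-1 line against −1.32, −1.03, −1.65 and −1.73, 54.3-fold apart, while Cdh5, Tek, Emcn, Cldn5 and Robo4 did not pass the filter. Of 10 dendritic cell genes, 2 were higher in the Fra-1 line and 4 in the Fra-2 line, including Cd209a (−3.63) and Ccr7 (−1.67). The share called in that list was 60%, near the 56.0% of all features.

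The genes with the largest differences were not all on a list. Bex1, a small adaptor protein known from neurons, was 5.76, 5.22, 4.76 and 5.0 in the Fra-1 line against −6.88, −6.85, −5.83 and −6.77 in the Fra-2 line, where this probe was below background on all arrays. The fitted difference was 11.77 (SE 0.31, limma adjusted p = 1.81e-06), and a second probe gave 8.08, so its first rank depends on the probe. The value of 8.08 still exceeds the smallest difference among the 20 (Pdgfra, 6.62). Prss46, a serine protease gene, was below background on all Fra-2 line arrays and at least 205-fold higher in the Fra-1 line. Npy, the neuropeptide Y, was 5.04, 4.70, 4.88 and 4.46 against −4.09, −4.62, −4.62 and −5.36, with 1 of the Fra-2 line arrays above background (9.44). Htr2b, a serotonin receptor, was at least 115-fold higher, Cd109, a protease inhibitor on the cell surface, at least 65.7-fold, and Slco2b1, a transporter of organic anions, at least 37.2-fold. Mgll, which splits monoacylglycerols (7.75), Stra6l, a relative of the retinol receptor (7.33), and Dio2, which activates thyroid hormone (7.33), were also among the 20. Dio2 ranged over −6.25 to −1.88 in the Fra-2 line. Both Mgll and Dio2 were above background on 2 of 4 Fra-2 line arrays. On the other side, Ly6f was below background on all Fra-1 line arrays and at least 167-fold higher in the Fra-2 line, Fam167b at least 138-fold, Ackr3, a decoy receptor for CXCL12, at least 74.4-fold, and Meox1, a homeobox factor, at least 37.8-fold. Nt5e, the CD73 enzyme that makes adenosine, differed by −7.96 and Lrg1, a secreted leucine-rich glycoprotein, by −7.88. Serpinb10 differed by −8.01. Both Nt5e and Serpinb10 were above background on 1 of 4 Fra-1 line arrays.

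**Figure D4:**
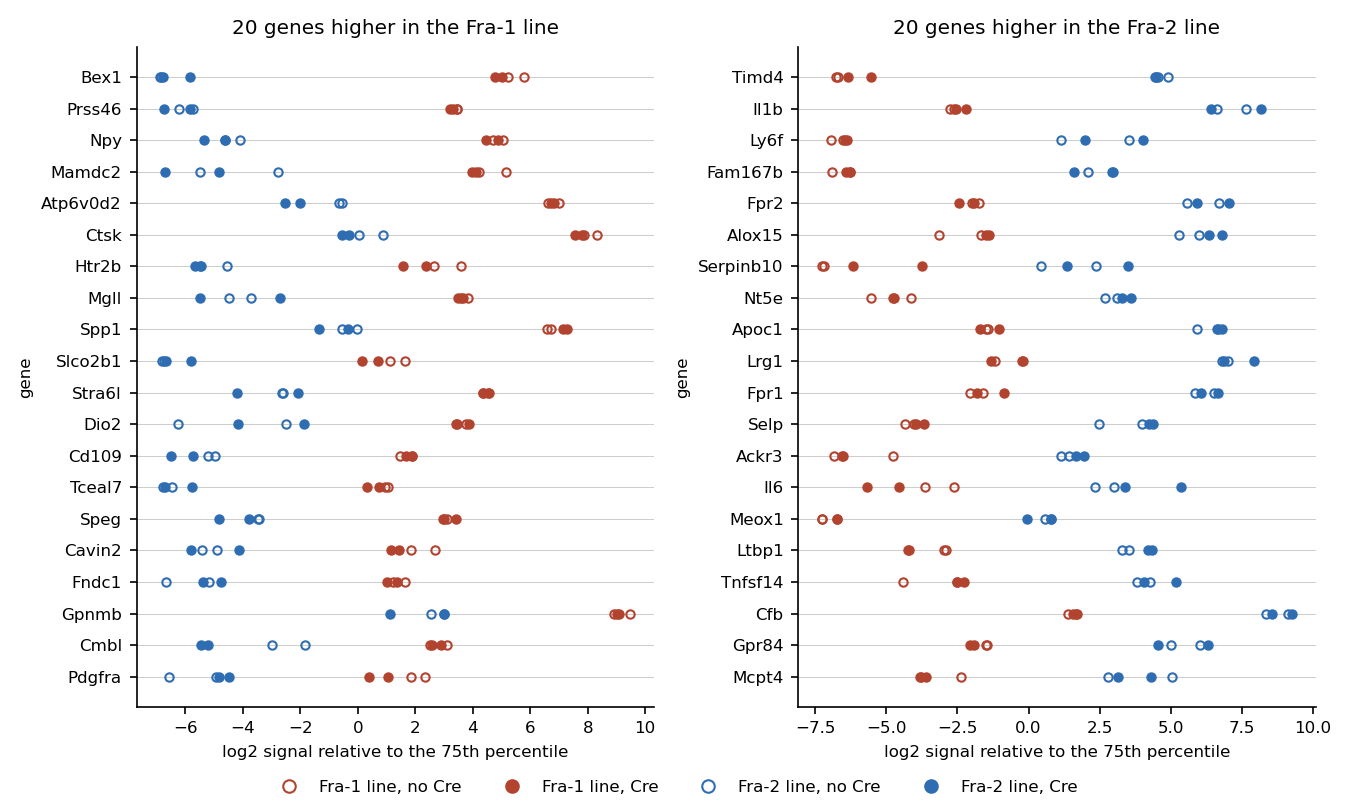
Normalized log2 signal (x axis) on each of 8 arrays for the 20 genes with the largest called differences in each direction (y axis); red is the Fra-1 line, blue the Fra-2 line, open points are mice without Cre and filled points mice with Cre. For every gene the 4 arrays of one line lie apart from the 4 of the other, as the choice of genes requires.

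The difference between the lines was also measured separately by Cre status. Among mice without Cre, 2 arrays per line, 6776 features were called, and among mice with Cre 8246. Of the 11734 features called over all arrays, 11727 had a value in both subsets, and 0 of these had opposite signs there. They were called on both subsets together, which makes opposite signs unlikely, so this count is no separate check. The test of whether the difference depended on Cre status called 0 of 20953 features by limma (smallest adjusted p = 0.208), with 1956 at an unadjusted p under 0.05. With each array left out in turn it called 1 to 15, the 15 without Fra-2 Cre 2. Timd4 differed by −11.45 without Cre and −10.40 with Cre, Il1b by −9.81 and −9.68, and Gpnmb by 6.44 and 6.99. For Fosl1, which differed by 0.41 and −2.36, this test gave an unadjusted p of 0.00882 and a limma adjusted p of 0.375. MxCre and LysMCre are different drivers acting on different genes, so this test mixes both.

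**Figure D5:**
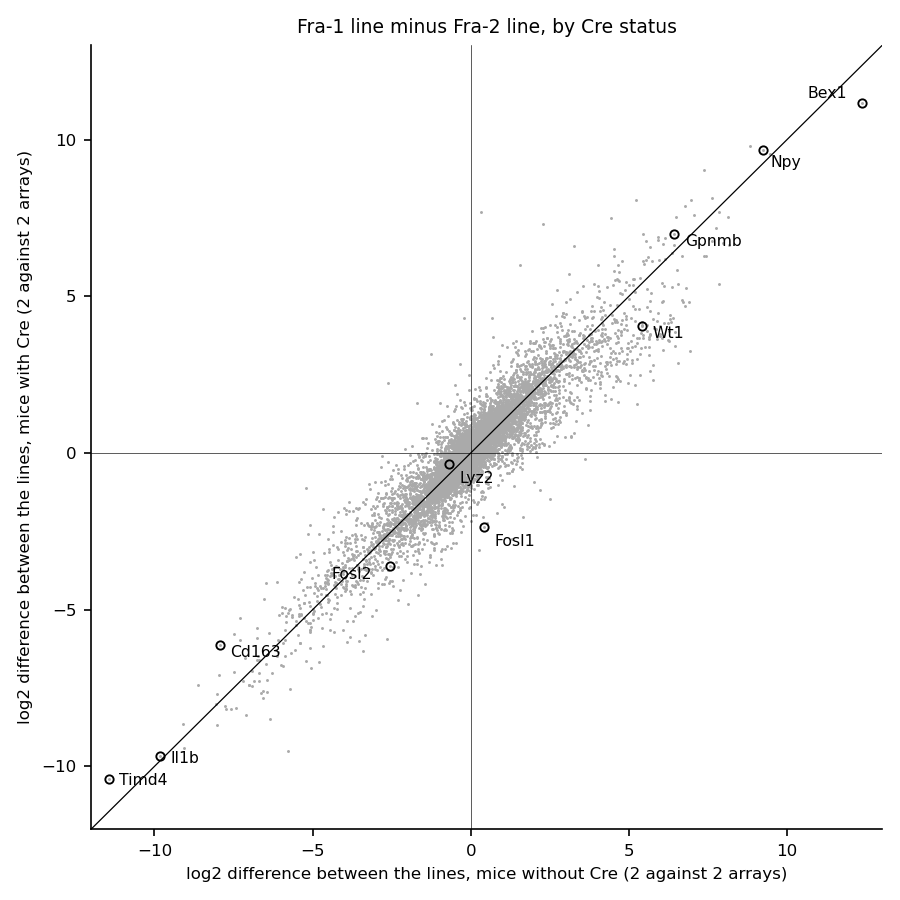
Log2 difference between the lines among mice without Cre (x axis) and among mice with Cre (y axis), 2 against 2 arrays each, for all tested genes with a symbol; the diagonal marks equal differences. Large differences such as those of Timd4, Il1b, Npy and Bex1 lie near the diagonal, and Fosl1 lies below it.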

How the data were processed

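RNA of 8 samples was read on 1-colour Agilent arrays (50 ng total RNA each, per the labels' protocols). The deposited scanner files hold linear intensity, already background-subtracted, with Feature Extraction 11.5.1.1 and its protocol GE1_1105_Oct12 per the file headers. A deposited matrix of the series holds log2 values that followed the scanner values closely (r of 0.9980 to 0.9985) and served as an alternative. The labels and series text count mice, with 4 wild-type, 2 Fra-1 deleted and 2 Fra-2 deleted, so each array was taken as 1 mouse.

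Control spots and outlier spots (191 to 317 per array) were left out, spots of a probe were averaged, and log2 signal was set relative to the 75th percentile of each array. The probe brightest on average stood for its gene. Of 55681 probes, 28026 were named by accession, without its version, from RefSeq's GRCm38.p6 table, giving 21154 genes. Features well above background on every measured array of at least 1 line were kept, with at least 3 of the 4 measured where outlier spots had been dropped. Tests used limma 3.58.1 in R 4.3.3 with line and Cre status as terms, moderated variances and Benjamini-Hochberg adjustment. On simulated data, 76 of 100 changes of 1 log2 unit and 91 of 100 of 2 units were recovered with 14 false calls among 20696 features. Only these features were changed in the simulation, whereas 56.0% of features were called in the data. The adjustment for multiple testing was therefore stricter there, and neither the recovery nor the false calls carry over to the data. A feature with missing spots was fitted on its other arrays.

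The members and the gene lists were chosen with earlier results of these data known. Named were Fosl1, Fosl2, Lyz2, Xist, the measured general and large resident macrophage markers, the 20 genes of largest called difference in each direction, and from each other list up to 5 called genes of largest difference, with the brightest marker of other cell types. Some listed genes are counted but not reported here by name. Alternatives changed the normalization, background correction, filter, probe summary, variance prior, slide, Cre term and arrays included, with normexp run on median raw signals. Both spot signal above background and the number of arrays limit the precision.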

Additional observations from a re-analysis of the deposited data

Results flagged for a closer look

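Of 350 groups of 4 arrays examined, 1 gene in 1 line each, 16 had 1 array whose gap to the nearest of the other 3, divided by the range of the group, was above the 95% critical value of Dixon's test. Chance gives about 1 in 20. Values are normalized log2 signals, with the range of the other 3 arrays of the line in brackets. On Fra-1 control 1 these were Alox15 at −3.16 (below −1.66 to −1.38), Ccl17 at −5.41 (below −3.32 to −3.10) and Tnfsf14 at −4.40 (below −2.53 to −2.26). On Fra-1 control 2 these were Ackr3 at −4.77 (above −6.84 to −6.54), Cish at −1.66 (above −2.44 to −2.37) and Mcpt4 at −2.38 (above −3.82 to −3.60). On Fra-1 Cre 2 these were Clec4n at 3.96 (above 2.89 to 2.98), Folr2 at 3.52 (below 3.94 to 3.98) and Olr1 at −1.45 (above −2.24 to −2.14). On Fra-2 control 1 these were Ccr7 at 3.04 (above 2.18 to 2.31), Htr2b at −4.54 (above −5.66 to −5.47) and Sparc at 1.53 (below 2.28 to 2.40). On Fra-2 control 2 it was Slpi at 9.11 (below 9.44 to 9.48). On Fra-2 Cre 1 these were Bex1 at −5.83 (above −6.88 to −6.77) and Slco2b1 at −5.80 (above −6.80 to −6.66). On Fra-2 Cre 2 it was Lrg1 at 7.93 (above 6.80 to 7.0). Ackr3 was below background on all arrays of the Fra-1 line and Bex1, Htr2b and Slco2b1 on all arrays of the Fra-2 line, so these values carry no order among arrays. The flags fell on 7 of the 8 arrays, and each of these genes was called in the same direction with that array left out.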

How the results depend on the processing

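Among alternatives that kept all arrays and the threshold, 10210 to 11943 features were called, against 11734 as reported. With 1 array left out in turn it was 9933 to 11454, within slide 1 6796, among mice without Cre 6776, and with a difference of at least 1 log2 unit also asked for 5049. The dependence on Cre status called 0 features in the 6 alternatives with all arrays in which it was tested (quantile normalization, deposited matrix, no filter, all 8 arrays above background, trended prior and slide as a term), and 1 to 15 with 1 array left out. Leaving out the filter on dim probes shifted the median over all features to −0.22, and under other settings it lay between −0.02 and 0.06. Over 178 named genes and 4409 values under alternatives, 0 called genes changed sign, 51 values lost a call and 11 gained one. A further 4263 kept their side of the threshold or, where there was no test, moved by less than 1 SD. Among these, a gene called under neither setting could change sign, as Fosl1 did among mice without Cre (0.41 against −0.97). Slide 2 alone allows no test; there 84 genes moved by more than 1 SD. Of the list medians larger than their SD between arrays of a line, 1 changed sign, endothelium, at 0.91 with probes averaged against −0.29. Smaller medians were not counted, and some of these changed sign too. An example is neutrophils, at −0.10 with slide as a term against 0.10. The cause of these changes was not tested. Replicate numbers were given in accession order and pair no arrays. No paired analysis was possible because the labels give no numbers shared between groups.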

Other observations

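Some gene families of the same name lay on 1 side. They were chosen after their values were seen, and no test was made on the families. The 4 formyl peptide receptors tested of 6 on the array were all higher in the Fra-2 line, with a median difference of −7.24, or −6.69 with the 2 that were below background on all Fra-1 line arrays at their bound. Of the Ly6 family, small surface proteins tethered by lipid, 6 of 9 were tested and 6 were higher in the Fra-2 line (median −5.35). Of the stefin A cluster, inhibitors of cathepsins, 7 of 12 were tested and 6 were higher in the Fra-2 line (median −5.37). Members of each of these families resemble each other in sequence, and their probes may share signal. The 3 Mrgprb receptors tested, known from mast cells, were higher in the Fra-2 line (median −3.22 with the 2 that were below background on all Fra-1 line arrays at their bound). For the third, Mrgprb3 (−3.04), the lines overlapped. Its level on Fra-1 Cre 2 was −2.88, within the Fra-2 line range of −3.93 to −1.89, and 1 of 4 Fra-1 line arrays was above background.

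Other families were higher in the Fra-1 line or split. Of 24 collagen genes tested of 44 on the array, 15 were higher in the Fra-1 line and 3 in the Fra-2 line (median 2.02, or 1.60 with the 3 below background on all Fra-2 line arrays at their bound). Of 6 vascular growth factors and angiopoietins, 4 were higher in the Fra-1 line: Angpt2 (5.0, 3 of 4 Fra-2 line arrays above background), Vegfc (4.60), Vegfb (2.03) and Vegfd, which was below background on all Fra-2 line arrays and at least 7.23-fold higher. Among interleukin 1 genes, the receptor gene Il1r1 was higher in the Fra-1 line (4.89), and Il1rl1, the receptor for interleukin 33, was higher in the Fra-2 line (−3.68). Of the 40 nearest tested genes around Fosl1 on its chromosome, 17 were called (42.5%), and around Fosl2 23 of 40 (57.5%), against 60.7% of all tested genes with a symbol.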
